A study of Mus musculus with 24 samples.

Results

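RACK1 depletion was examined in the Rps26Tir1 line, the mouse embryonic stem cell line whose TIR1 receptor is joined to RPS26. The comparison covered 12 of the series' 24 polysome sequencing libraries, chosen by their titles. All were made from E14 cells of the genotype RACK1-AID/RPS26-Tir1, called Ribo-Tweezer by the submitters, and differed in treatment (IAA or DMSO for 12 h) and in polysome fraction (free, low translation or heavy translation). Each of these 6 groups held 2 replicates, and both treatment groups carry the degron tag and the TIR1 fusion. The other 12 libraries came from the RACK1-AID FreeTir1 line, given the same treatments. Neither the number of clones per line nor the origin of the replicates (separate cultures or not) is given, and the p-values therefore cover only the variation among these libraries, which may be technical.

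Auxin-inducible degrons use a plant receptor, TIR1, which in the presence of indole-3-acetic acid (IAA) hands a tagged protein to the cell's ubiquitin ligase. RACK1 sits on the head of the small ribosomal subunit, where it docks signalling kinases and takes part in the response to collided ribosomes. RPS26 lies near the mRNA exit channel of the same subunit. Polysome profiling separates mRNAs by how many ribosomes they carry.

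The measurements were 13504 log2 fold changes between IAA and DMSO, each with an average expression and p-values, from the authors' deposited table. The average expression is identical for both lines at every gene, so it does not describe the Rps26Tir1 line alone. The table does not state the numerator or the fractions that entered the fold change. Values are called positive or negative here, and positive means higher with IAA if the usual order was kept. Transcript amount and ribosome loading cannot be told apart. With no values per library, no SD can be given and the depth is unknown. The 8633 genes with an average expression of at least 3 had a median standard error of 0.115, worked back from the p-values, against 0.363 for genes below 1. Medians below are over the genes at 3 or more.

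Pluripotency markers were high, as the stem cell label says. Of 32 measured naive and general pluripotency genes 31 reached an average expression of 3, and Pou5f1, Sox2 and Nanog stood at 10.01, 8.68 and 8.33 per the authors' deposited table. The counts were 6 of 20 for primitive endoderm markers, 1 of 7 for mesendoderm, 2 of 11 for neural, 2 of 8 for trophoblast and 2 of 9 for fibroblast feeder markers. Col1a1, a fibroblast collagen, was at 0.15 per the authors' deposited table. The mRNA of Rack1 itself had a fold change of -0.05 (adjusted p = 0.892) and that of Rps26 0.06 (adjusted p = 0.843) per the authors' deposited table; a degron acts on protein, so these values do not check the depletion.

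Immediate early genes, splicing regulators, zinc finger genes and mitotic genes leaned positive in the Rps26Tir1 line, and glycolysis, citric acid cycle, proteasome and lysosome genes leaned negative. The lean was small for most classes, with medians between -0.14 and 0.21 for those plotted, and it rested on many genes that did not pass singly. A gene is called where its adjusted p per the authors' deposited table was under 0.05. The smallest of these adjusted p-values corresponds to an adjustment over 15864 genes, more than the 13504 listed. The shares below are therefore of the listed genes alone. Over all genes 149 were called positive, or 1.1%, and 73 negative, or 0.541%. At an unadjusted p under 0.05 the shares were 9.55% positive and 6.72% negative. The fold change was positive for 52.98% of all genes, with a median of 0.01. In the FreeTir1 line 0 genes were called, and 367 were positive and 537 negative at an unadjusted p under 0.05; both lines' adjusted p-values are the authors'. The Rps26Tir1 shares are the background for every class below, and no class was tested against them.

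**Figure D1:**
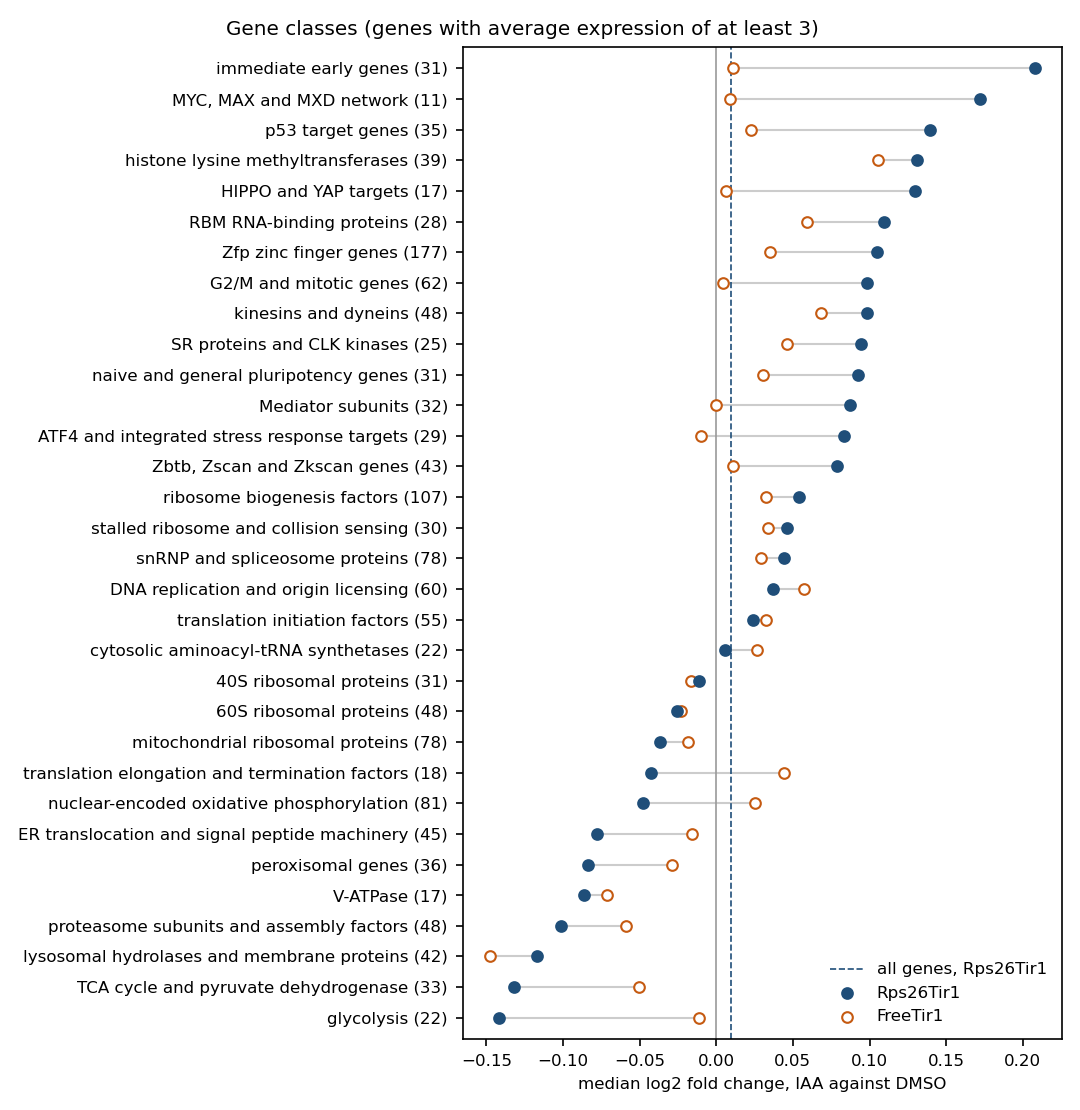
Median log2 fold change of 32 gene classes, for members with an average expression of at least 3 (number in parentheses), in the Rps26Tir1 line (filled) and the FreeTir1 line (open); the dashed line is the median of all genes in the Rps26Tir1 line. Immediate early genes are highest at 0.21 and glycolysis genes lowest at -0.14, while lysosomal genes are low in both lines.

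Immediate early genes, which are transcribed within minutes of a growth signal and encode unstable mRNAs, had 28 of 42 members positive, the median being 0.21. Calls in the class were divided, with 4 positive and 2 negative. Myc, the growth-promoting transcription factor, stood at 1.01 (standard error 0.171, adjusted p = 0.00386) per the authors' deposited table. Srf, the serum response factor that switches on many of these genes, had 0.50 (adjusted p = 0.0229) per the authors' deposited table, Klf6 had 0.48 and Btg2, an antiproliferative protein that binds a deadenylase, 0.44. Fos, a subunit of the AP-1 dimer, stood the other way at -0.62 (adjusted p = 0.0133) per the authors' deposited table, as did Ier3 at -0.56. The call of Ier3 ended, at adjusted p = 0.0555, when p-values were adjusted among the genes at 3 or more alone. The class had a median of 0.01 in the FreeTir1 line.

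Genes around MYC and p53 also leaned positive. Of the 13 measured members of the MYC, MAX and MXD network 12 were positive, with a median of 0.17, and besides Myc the MAX partner Mxd1, which represses MYC targets, was called at 0.71 (adjusted p = 0.0355) per the authors' deposited table. Of 43 p53 targets 34 were positive, with a median of 0.14; 12 were positive and 1 negative at an unadjusted p under 0.05, and Btg2 was the member called. Among apoptosis regulators the BH3-only gene Hrk was called at 0.74 (adjusted p = 0.00609) per the authors' deposited table, and 27 of 39 members were positive. The inhibitors of basic helix-loop-helix factors Id3 and Id4 were called at 0.76 and 0.83 (adjusted p of 0.00802 and 0.0426) per the authors' deposited table.

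HIPPO pathway genes and YAP targets had 16 of 23 members positive, the median being 0.13 against 0.01 in the FreeTir1 line. All of the 4 called members were positive, and 7 were positive and 0 negative at an unadjusted p under 0.05. Lats1, the kinase that holds YAP in the cytoplasm, stood at 0.61 (adjusted p = 0.0145) per the authors' deposited table, and Mob1b, its activating partner, at 0.59 (adjusted p = 0.0438). Amotl2, an angiomotin that is both a YAP target and a brake on YAP, had 0.58 per the authors' deposited table, and Kank4, a cytoskeletal adaptor, 0.76. In the FreeTir1 line Amotl2 and Kank4 had values nearer to these, 0.48 and 0.51 per the authors' deposited table, than Lats1 and Mob1b, at 0.06 and -0.03. The call of Mob1b ended, at adjusted p = 0.0541, when the genes at 3 or more were adjusted together.

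Targets of the stress factor ATF4 had 21 of 33 members positive, a median of 0.08, and 8 positive and 0 negative members at an unadjusted p under 0.05. Chac1, a glutathione-degrading enzyme and a sensitive readout of ATF4, stood at 0.72 (adjusted p = 0.0302) per the authors' deposited table, against -0.16 in the FreeTir1 line. The amino acid transporter Slc38a2 had 0.49 and Ppp1r15b, the constitutive partner of the eIF2 alpha phosphatase, 0.50 per the authors' deposited table. Both calls ended, at adjusted p of 0.055 and 0.0555, when the genes at 3 or more were adjusted together. Genes of stalled ribosome and collision sensing, the process tied to RACK1, were near the background, with 18 of 31 positive and a median of 0.05. None of them was called, and 2 were positive and 1 negative at an unadjusted p under 0.05; Ankzf1, which releases stalled chains, had the smallest adjusted p, 0.0581 at 0.44, and Zfp598, the ligase that marks collided ribosomes, stood at -0.29 (adjusted p = 0.156) per the authors' deposited table.

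**Figure D2:**
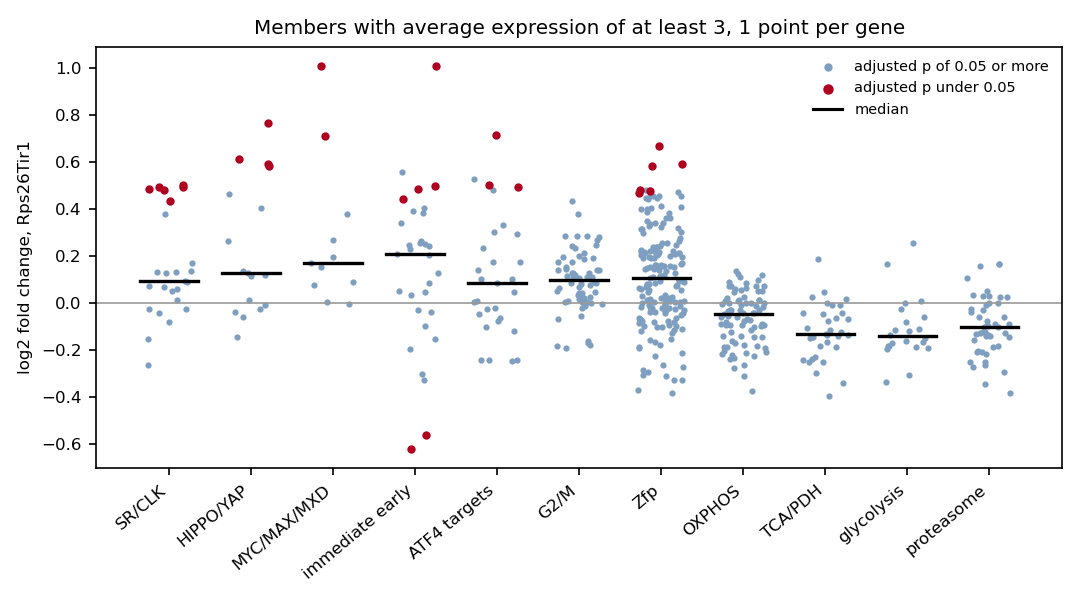
Log2 fold change of each member with an average expression of at least 3 in the Rps26Tir1 line, for 11 classes; red points have adjusted p under 0.05 and black bars are medians. All 6 called genes of the SR and CLK class are positive, whereas the 2 called negative genes shown, Fos and Ier3, are immediate early genes.

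SR proteins bind exonic enhancers to steer splicing, and CLK kinases set their activity by phosphorylating them. Of 26 members 6 were called, all positive. In the authors' deposited table the kinase gene Clk1 stood at 0.50 (adjusted p = 0.0133). The SR genes Srsf7, Srsf2, Srsf5 and Srsf3 stood at 0.49, 0.49, 0.48 and 0.44 per the authors' deposited table, and Son, a large SR-related scaffold of nuclear speckles, at 0.48. The class median was 0.09, with 19 of 26 positive. In the FreeTir1 line the same 6 genes were between 0.07 and 0.23 per the authors' deposited table. The call of Srsf5 ended, at adjusted p = 0.0541, when the genes at 3 or more were adjusted together. Of the 31-base stretches of Srsf3 and Srsf5 37.6% and 36.7% also occur in other genes.

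Among other RNA-binding proteins the RBM genes leaned the same way. RBM genes had 28 of 37 members positive, the median being 0.11, with 8 positive and 0 negative at an unadjusted p under 0.05. Rbm15, which guides the m6A methyltransferase, was called at 0.60 (adjusted p = 0.00542) per the authors' deposited table, and Ythdc1, the nuclear reader of that mark, at 0.46 (adjusted p = 0.0474); the latter call ended, at 0.0555, when the genes at 3 or more were adjusted together. Rbm12b1 and Rbm4 were called at 1.07 and 0.58 per the authors' deposited table, but 71.0% and 98.2% of their 31-base stretches are found elsewhere in the transcriptome, so these values are uncertain. The RNA helicase Dhx9 stood at 0.56 and the spliceosome core protein Prpf8 at 0.47 per the authors' deposited table. Core snRNP and spliceosome proteins as a class had 53 of 79 positive with a median of 0.04, and hnRNP genes, with 18 of 28 positive, had 0 calls and 1 positive and 2 negative members at an unadjusted p under 0.05.

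The gene with the smallest p, Ppp1r10, encodes PNUTS, which targets protein phosphatase 1 to chromatin and slows RNA polymerase II at the ends of genes. It stood at 1.25 (standard error 0.151, adjusted p = 6.67e-05) per the authors' deposited table, and at 0.50 with unadjusted p = 0.00193 in the FreeTir1 line. The class of nuclear PP1 regulators around it had 18 of 33 members positive, the median being 0.00, and its other called member was Ppp1r15b.

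Zinc finger genes were the most numerous class. The 362 Zfp genes had 239 positive members; 79 were positive (21.8%) and 15 negative at an unadjusted p under 0.05, and the 12 called were all positive. Zfp367 stood at 0.59 (adjusted p = 0.0109) per the authors' deposited table. Zfp719, Zfp715 and Zfp866 had 0.87, 0.59 and 0.67 per the authors' deposited table. Zbtb, Zscan and Zkscan genes had 37 of 66 positive, near the background, and 33 of 66 after the correction for length and expression given below. At an unadjusted p under 0.05, 12 were positive and 5 negative. The 4 called were positive, with Zscan18 at 0.73, Zbtb41 at 0.68 and Zbtb40 at 0.61 per the authors' deposited table. Many Zfp genes share sequence with their neighbours in a cluster, and Zfp345 and Zfp955b, both called, share 52.6% and 41.1% of their stretches. The calls of Zfp345 and Zfp953 ended when p-values were adjusted over the genes of the table alone. For 33 Zfp genes the difference between the lines was positive at an unadjusted p under 0.05 and for 5 it was negative, against 4.15% and 2.03% of all genes. The difference test used standard errors worked back from the deposited p-values of both lines, and after adjustment over all genes no Zfp gene passed it.

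Chromatin regulators were mixed. Histone lysine methyltransferases had 28 of 41 positive with a median of 0.13, and the FreeTir1 median was 0.11. The H3 lysine 4 enzyme Setd1b was called at 0.75 and Setd6, which methylates non-histone proteins, at -0.47 per the authors' deposited table. The AT-rich interaction gene Arid5b stood at 0.83 (adjusted p = 0.00267) per the authors' deposited table. Negative calls included the arginine methyltransferase gene Carm1 at -0.43 and Mta1, a subunit of the NuRD deacetylase, at -0.40 per the authors' deposited table. Mediator subunits had 22 of 33 positive with a median of 0.09 and 0 calls; 5 were positive and 2 negative at an unadjusted p under 0.05.

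**Figure D3:**
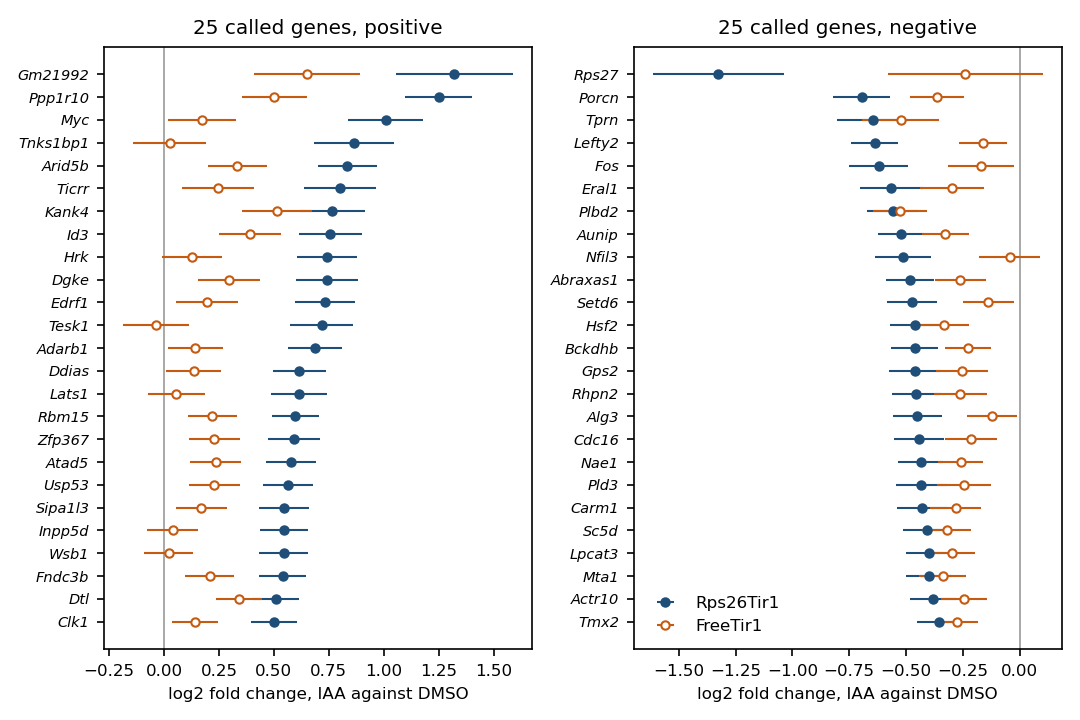
Log2 fold change and standard error (worked back from the p-value) of the 25 positive and the 25 negative called genes of smallest p with an average expression of at least 3, in the Rps26Tir1 line (filled) and the FreeTir1 line (open). Ppp1r10 is at 1.25 and Lefty2 at -0.64 in the Rps26Tir1 line; the genes were chosen by these values, so the gap between the lines is not a test.

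Mitotic genes leaned positive without a call. Of 62 G2/M genes 52 were positive, with a median of 0.10 against 0.00 in the FreeTir1 line, where 31 were positive. At an unadjusted p under 0.05, 10 were positive and 0 negative. Top2a, which untangles sister chromatids, had the smallest p, at 0.29 (adjusted p = 0.127) per the authors' deposited table, and the mitotic cyclin Ccnb1 stood at 0.28 (adjusted p = 0.173). Kinesins and dyneins had 41 of 61 positive and a median of 0.10, and in the FreeTir1 line 37 were positive with a median of 0.07. Replication and origin licensing genes were near the background as a class, with 35 of 61 positive and a median of 0.04. Ticrr, which helps to load CDC45 at origins, was called at 0.80 and the licensing factor Cdc6 at 0.43 per the authors' deposited table; that of Cdc6 ended, at 0.0566, when the genes at 3 or more were adjusted together. Dtl, the substrate receptor that degrades licensing factor CDT1, had 0.51, and the PCNA unloader Atad5 0.58 per the authors' deposited table. Break repair genes had 29 of 47 positive; Lig4, the ligase of end joining, was called at 0.58 and Aunip, which promotes end resection, at -0.52 per the authors' deposited table. Abraxas1, a BRCA1 complex scaffold, was called at -0.48 per the authors' deposited table.

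Translation genes went both ways, with initiation and biogenesis factors more often positive and elongation factors and ribosomal proteins more often negative. Of 31 small-subunit protein genes 18 were negative with a median of -0.01, and of 49 large-subunit genes 33 with a median of -0.03. In the FreeTir1 line 18 and 30 were negative. After the correction for length and expression given below, 15 of 31 and 19 of 49 were positive in the Rps26Tir1 line. Rps27 was called at -1.33 per the authors' deposited table, but 98.7% of its 31-base stretches are found elsewhere in the transcriptome, so the value is uncertain. Initiation factors had 37 of 59 positive with a median of 0.02 and 0 calls, with 5 positive and 2 negative at an unadjusted p under 0.05. In the FreeTir1 line 36 of these were positive, with a median of 0.03. Elongation and termination factors had 15 of 20 negative with a median of -0.04, and the FreeTir1 median was 0.04. Their called member was a regulator, the eEF2 kinase Eef2k, at 0.61 (adjusted p = 0.0481) per the authors' deposited table; its call ended, at 0.0555, when the genes at 3 or more were adjusted together. Ribosome biogenesis factors had 70 of 107 positive with a median of 0.05, and 64 were positive in the FreeTir1 line. Their helicase Dhx37 was called at 0.47 per the authors' deposited table. Mitochondrial ribosomal proteins leaned negative, 50 of 79, with a median of -0.04, and 47 were negative in the FreeTir1 line. After the correction for length and expression 36 of the 79 were positive in the Rps26Tir1 line, and the median was -0.01.

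Energy metabolism leaned negative. Of 24 glycolysis genes 19 were negative, with a median of -0.14 and -0.01 in the FreeTir1 line. None was called, and 2 were positive and 2 negative at an unadjusted p under 0.05; the phosphoglycerate mutase Pgam1 stood at -0.34 (adjusted p = 0.0728) per the authors' deposited table. Of 33 genes of the citric acid cycle and pyruvate dehydrogenase 28 were negative, with a median of -0.13; in the FreeTir1 line 20 were negative, with a median of -0.05. None was called, and 6 were negative and 0 positive at an unadjusted p under 0.05. Pdk3, a kinase that inhibits pyruvate dehydrogenase, had -0.39 (adjusted p = 0.0677) and the mitochondrial isocitrate dehydrogenase Idh2 -0.34 (adjusted p = 0.0880) per the authors' deposited table. Oxidative phosphorylation genes had 56 of 84 negative with a median of -0.05, where the FreeTir1 median was 0.03. The branched-chain keto acid dehydrogenase subunit Bckdhb was called at -0.46 per the authors' deposited table. Lipid genes went both ways: the fatty acid synthase Fasn was called at 0.44, while the sterol desaturase Sc5d had -0.41 and the lysophospholipid acyltransferase Lpcat3 -0.40 per the authors' deposited table. The call of Sc5d ended, at 0.0503, when the genes at 3 or more were adjusted together.

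Proteasome, lysosome and ER translocation genes leaned negative, while ubiquitin-conjugating enzymes, deubiquitinases, HECT ligases and ER folding genes had more positive than negative members. Proteasome subunits and assembly factors had 37 of 49 negative with a median of -0.10, with 0 called and 7 negative and 0 positive at an unadjusted p under 0.05. Of the 49, 34 were negative in the FreeTir1 line, with a median of -0.06. Psmd11, a lid subunit, had -0.38 (adjusted p = 0.0507) per the authors' deposited table. Ubiquitin-conjugating enzymes had 24 of 39 positive, deubiquitinases 42 of 71, HECT and large ligases 21 of 28, and ER folding genes 22 of 37. In the FreeTir1 line these counts were 16, 49, 22 and 16. After the correction for length and expression given below, the Rps26Tir1 counts were 24, 41, 13 and 22, so the HECT lean was not kept. Calls among ubiquitin-pathway genes were divided. Nae1, which activates NEDD8 for cullin ligases, and Cdc16, a subunit of the anaphase-promoting complex, were both at -0.44, and the ligase gene Rnf135 at -0.69, per the authors' deposited table. The conjugating enzyme Ube2b was at 0.39, Usp53 at 0.57 and the cullin adaptors Klhl20 and Klhl11 at 0.46 and 0.59 per the authors' deposited table. The calls of Ube2b, Klhl20 and Klhl11 ended, at adjusted p of 0.0542, 0.0542 and 0.0555, when the genes at 3 or more were adjusted together. Lysosomal genes had 42 of 54 negative with a median of -0.12, and the FreeTir1 median was -0.15. Plbd2, a lysosomal phospholipase-like protein, was called at -0.56 and stood at -0.53 in the FreeTir1 line of the authors' deposited table. Sgsh, a lysosomal sulphatase of low average expression (0.61), was called the other way at 1.20 per the authors' deposited table; the call ended when p-values were adjusted over the genes of the table alone. V-ATPase genes, the lysosomal proton pump, had 13 of 20 negative and a median of -0.09, and 12 were negative in the FreeTir1 line. Genes of translocation into the ER had 33 of 46 negative with a median of -0.08, and 32 were negative in the FreeTir1 line. Ddost, a subunit of the oligosaccharyl transferase, was called at -0.35 per the authors' deposited table. Its call ended, at 0.0566, when the genes at 3 or more were adjusted together, as did those of the peroxisomal genes Tysnd1 and Pex13, at 0.0555 and 0.0573. Alg3, an ER mannosyltransferase, stood at -0.45 per the authors' deposited table.

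Signalling genes of early development were among the negative calls. Lefty2, a feedback inhibitor of Nodal, stood at -0.64 (standard error 0.105, adjusted p = 0.00267) per the authors' deposited table, and Eomes, a Nodal-responsive mesendoderm factor, at -0.62 (adjusted p = 0.0445). Porcn, the enzyme that acylates Wnt proteins for secretion, had -0.70 (adjusted p = 0.00542) and Fgf15 -0.60 (adjusted p = 0.0199) per the authors' deposited table. In the Nodal, Wnt and FGF classes 12 of 25, 24 of 54 and 11 of 29 members were negative. The Nodal class had 1 positive and 3 negative members at an unadjusted p under 0.05. The Wnt class had 9 positive and 2 negative, and the FGF class 5 and 2, so these 2 classes did not share the direction of Porcn and Fgf15. Of the 7 measured mesendoderm markers, which include Lefty2 and Eomes, 5 were negative, all at an unadjusted p under 0.05, and 5 were negative in the FreeTir1 line. Only Lefty2 of the 7 reached an average expression of 3, and the median average expression of the 7 was -0.47. That of Eomes was 2.74 and that of Fgf15 was 2.49. Primitive endoderm markers had 14 of 20 negative and 0 called, with 1 positive and 4 negative at an unadjusted p under 0.05. Naive pluripotency genes had 24 of 32 members positive, the median being 0.09 and none called; 5 were positive and 0 negative at an unadjusted p under 0.05. Integrins, cadherins and claudins, taken by symbol, had 36 of 58 negative, and 4 were called negative and 1 positive. The negative calls include Itgb1bp2, at -4.79 per the authors' deposited table, which encodes an integrin-binding protein and not an integrin. Itga4 was at -2.11 and Dsc2, a desmosomal cadherin, at 1.12 per the authors' deposited table, and the 5 called genes all had an average expression under 1.

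Among the other positive calls, Adarb1, an enzyme that edits adenosine to inosine, was at 0.69 (adjusted p = 0.00542) and Rb1cc1, a scaffold of the autophagy-starting kinase complex, at 0.80 (adjusted p = 0.00458) per the authors' deposited table. Autophagy genes as a class had 28 of 41 positive with a median of 0.04. The CCR4-NOT-binding gene Tnks1bp1 was called at 0.87, against 0.03 in the FreeTir1 line, per the authors' deposited table. Dusp10, a phosphatase of stress kinases, was called at 1.02 and the kinase Map3k13 at 1.89 per the authors' deposited table, both with low average expression, 1.43 and 0.34. Further negative calls were the heat shock factor Hsf2 at -0.46, the circadian repressor Nfil3 at -0.51 and Eral1, a mitochondrial ribosome assembly factor, at -0.57 per the authors' deposited table.

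Genes were also grouped by symbol stem, using only those with an average expression of at least 3. Among 78 stems with at least 12 genes, the highest medians were those of Arhgef (0.17), Dhx (0.16, helicases), Kif (0.15, kinesins), Rbm (0.11), Zfp (0.10) and Trim (0.10, ubiquitin ligases). The lowest were Cd (-0.14, surface antigens), Psmd (-0.13, proteasome cap), Pex (-0.09, peroxisome), Smim (-0.09, small membrane proteins), Mettl (-0.08, methyltransferases) and Zdhhc (-0.07, palmitoyl transferases). Of these 14 Arhgef genes 12 were positive, and of these 25 Kif genes 21. Arhgef5, left out by its lower average expression of 1.81, was called negative at -0.88 per the authors' deposited table.

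Long mRNAs leaned positive in both lines. Across the 8633 genes, the Spearman rank correlation of the fold change with transcript length was 0.287 in the Rps26Tir1 cells, and 0.211 for FreeTir1. With coding length it was 0.195 and 0.180, and with 3' UTR length 0.173 and 0.066. The difference between the lines had correlations of 0.150 with transcript length, 0.074 with coding length and 0.141 with 3' UTR length. These are correlations across genes, which share libraries and are not independent, so no test was made. Genes were ranked by length and cut into 10 bins of like size. The bin of longest 3' UTRs, with a median of 4285.5 bases, had a median fold change of 0.08 and 70.0% positive members, and 0.04 and 60.4% in the FreeTir1 line. Coding length was not monotonic: the lowest median, -0.04, was in the bin at 837 bases, and the highest, 0.12, in the bin at 4711.5 bases. With both lengths cut into 3 bins, among genes with the longest coding sequences the share of positive genes was 58.2% for the shortest 3' UTRs and 71.3% for the longest. In the FreeTir1 line these shares were 62.4% and 67.4%. The 96 positive called genes had a median 3' UTR of 1494.5 bases and the 34 negative ones 599.5 bases, against 982 bases for all 8633.

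**Figure D4:**
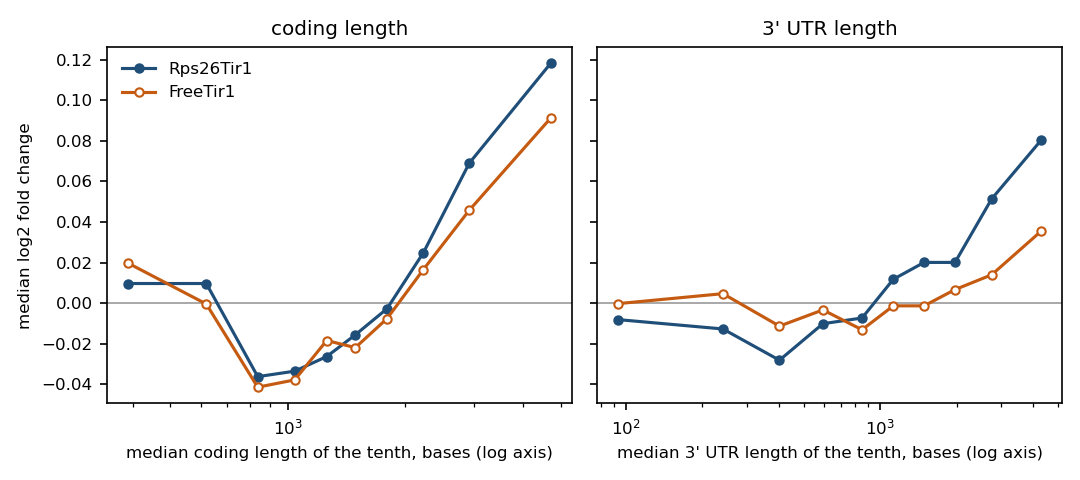
Median log2 fold change in 10 bins of genes (average expression of at least 3) ranked by coding length (left) and 3' UTR length (right), both on log axes, in the Rps26Tir1 line (filled) and the FreeTir1 line (open). The lines run close together for coding length and apart for long 3' UTRs, where the last bin is at 0.08 and 0.04.

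Long 3' UTRs hold more AU-rich elements, sequences that bind decay factors and shorten mRNA life, and both features moved together here. The pentamer ATTTA was counted on the sense strand of the 3' UTR, overlapping copies included. Genes with 0 copies were positive in 46.2% of cases, and the 358 genes with 11 or more copies in 70.7%. The median 3' UTR of these groups was 350 and 4552 bases, so copies and length were not separated. In the FreeTir1 line these shares were 48.8% and 58.1%. The stricter nonamer TTATTTATT, which contains the pentamer, occurs in 7.27% of all 8633 genes, in 12 of the 96 positive called genes (12.5%) and in 3 of the 34 negative ones (8.82%). The first copy is shown, in capitals with flanks, for the 4 positive and the 1 negative called genes of smallest p that have one, since they are the called mRNAs to which the count refers; sequences are from GENCODE M21 on GRCm38.
Dgke: tttttaagatTTATTTATTtgccgggcat
Fndc3b: agtgcaatctTTATTTATTgtaatgttaa
Usp53: tggtagtataTTATTTATTaaattatttt
Mat2a: ttctaattgcTTATTTATTgtattctggg
Fos: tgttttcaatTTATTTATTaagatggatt
These sites lie at chr11:89037857-89037885, chr3:27417607-27417635, chr3:122933066-122933094 and chr6:72433188-72433216 on the minus strand and, for Fos, at chr12:85477103-85477131 on the plus strand. In the authors' deposited table Dgke, a kinase that clears diacylglycerol, had 0.74, the membrane protein gene Fndc3b 0.54, Usp53, of the ubiquitin-specific protease family, 0.57 and Mat2a, which makes S-adenosylmethionine, 0.60. Fos, with the same nonamer, was at -0.62. Over the 8633 genes, 51.8% of those with 0 nonamers were positive, 64.7% of the 495 with 1, 68.2% of the 85 with 2 and 60.4% of the 48 with 3 or more. These shares were 50.3%, 55.2%, 65.9% and 64.6% in the FreeTir1 line. A match describes these letters only.

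Runs of lysine codons can slow or stall ribosomes. Of the 8622 genes with an in-frame coding sequence, 63 hold a run of 6 or more lysine codons, and 74.6% of these were positive in the Rps26Tir1 cells, and 39.7% for FreeTir1, with medians of 0.07 and -0.03. With a longest run of 0 or 1 the shares were 45.9% and 47.1%. Because long proteins hold more runs, the genes were divided at the median coding length: among shorter genes 13 of 18 with such a run were positive (72.2%), against 45.8% of those without, and among longer genes 34 of 45 (75.6%) against 59.3%. One of the 63, Son, was called. The run, in capitals, with 12 bases on either side is shown for the 3 positive genes and the 1 negative gene of smallest p among the 63.
Son: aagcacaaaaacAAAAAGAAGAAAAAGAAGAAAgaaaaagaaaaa
Gtf2f1: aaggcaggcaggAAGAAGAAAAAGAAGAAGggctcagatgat
Srrm2: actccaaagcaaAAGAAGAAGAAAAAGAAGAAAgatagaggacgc
Metap2: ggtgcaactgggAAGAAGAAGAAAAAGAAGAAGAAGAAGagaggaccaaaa
The run of Son lies at chr16:91654703-91654747 on the plus strand and that of Gtf2f1 at chr17:57004737-57004778 on the minus strand, flanks included, while those of Srrm2 and Metap2 span exon junctions. AAA makes up 3 of 7 codons in Son, 1 of 6 in Gtf2f1, 2 of 7 in Srrm2 and 1 of 9 in Metap2. The general transcription factor subunit Gtf2f1 had 0.38 (adjusted p = 0.0685), the splicing scaffold Srrm2 0.38 (adjusted p = 0.101) and the methionine aminopeptidase Metap2, with the longest run of these, -0.23 (adjusted p = 0.233) per the authors' deposited table.

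**Figure D5:**
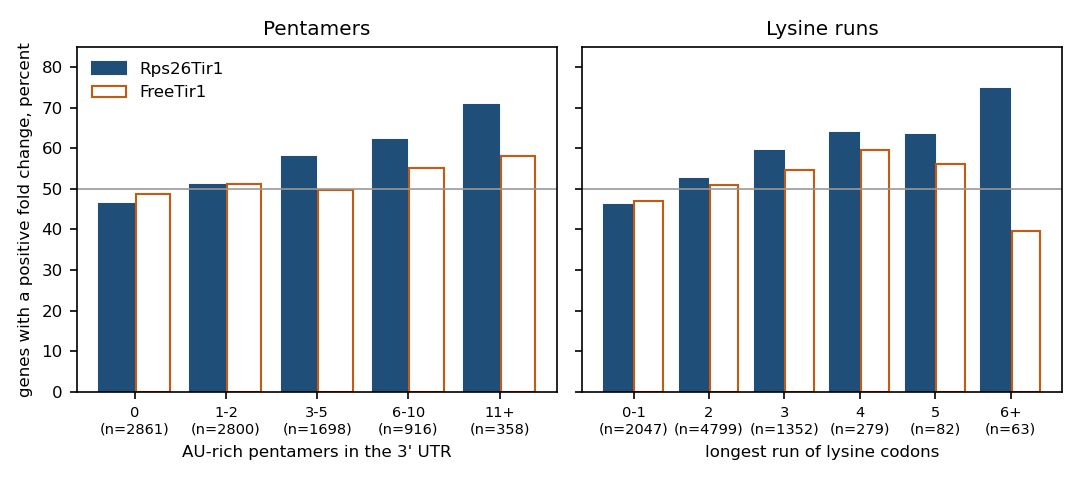
Percentage of genes (average expression of at least 3) with a positive fold change, by the number of AU-rich pentamers in the 3' UTR (left) and by the longest run of lysine codons (right), in the Rps26Tir1 line (filled) and the FreeTir1 line (open). The share reaches 70.7% at 11 or more pentamers and 74.6% at 6 or more lysine codons in the Rps26Tir1 line, where the FreeTir1 line has 58.1% and 39.7%.

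Runs of other residues and other features were counted in the same way. The 64 genes with 5 or more arginine codons in a row were positive in 71.9% of cases, and in 59.4% in the FreeTir1 line. Runs of 6 or more proline codons, in 215 genes, went with 66.5% positive genes, and 56.3% in the FreeTir1 line. Where the longest run was 0 or 1, the Rps26Tir1 shares were 48.1% for arginine and 47.1% for proline. The median coding length was 1930.5 bases with the arginine runs and 2664 bases with the proline runs. The bins of coding length at 1794, 2223 and 2913 bases had 49.6%, 57.4% and 66.5% positive genes. Upstream AUGs, counted in the 5' UTR, went with 59.8% positive genes at 4 or more and 49.98% at 0, and 57.6% and 48.2% in the FreeTir1 line. Genes with 32 or more exons were positive in 76.0% of cases, and in 80.7% in the FreeTir1 line. Their median coding length was 5739 bases, and the bin of longest coding sequences, at 4711.5 bases, had 76.7% positive genes. Whether these shares differ from those of genes of like length was not tested. Classes also differ in the length of their members. After the median of genes of like transcript length and average expression was subtracted, 51 of 62 G2/M genes, 227 of 362 Zfp genes, 19 of 26 SR and CLK genes and 15 of 23 HIPPO genes were positive, and 5 of 24 glycolysis and 6 of 33 citric acid cycle genes. The median of kinesins and dyneins was 0.10 before and 0.05 after this subtraction, which left 33 of 61 positive. In the FreeTir1 line their median after the same subtraction was 0.06.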

How the data were processed

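Polyadenylated RNA from polysome fractions was extracted with Trizol and sequenced from paired-end TruSeq libraries, per the labels' protocols. The log2 fold changes, log2 average expression, p-values and adjusted p-values were deposited by the authors in 1 comparison table, whose column names are those limma writes, per the file headers. The base was read as 2 because 2 to the power of the average expression sums to 657744.1 over genes. The sources used here name no aligner, counter, build, normalization or model.

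Gene and transcript identifiers were matched to GENCODE M21 (GRCm38), in which all 13504 rows were found, and transcript features were computed with Python 3.11.15, numpy, pandas and SciPy. Standard errors were worked back from p-values with 29 estimated degrees of freedom, tested on simulated data. The difference between the lines was adjusted by Benjamini-Hochberg over all genes. Shared sequence is the percentage of a transcript's 31-base stretches found in other genes.

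The members and the 103 class lists were chosen with earlier results of these data known. Named are Rack1 and Rps26, the 25 called genes of smallest p in each direction with an average expression of at least 3, called class members and up to 3 members of smallest p per class described; genes shown for their sequence, markers and feature counts were chosen after their values were seen. Some items are not reported here.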

Additional observations from a re-analysis of the deposited data

Results flagged for a closer look

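Rnaset2b, a ribonuclease gene, was the gene whose effect of IAA differed between the lines at an adjusted p under 0.05 over all genes; this test used standard errors worked back from the deposited p-values. Its fold change per the authors' deposited table was -1.95 in the Rps26Tir1 cells, against 0.41 in the FreeTir1 cells. Subtracting the second from the first gave -2.36 (standard error 0.410, adjusted p = 0.0414). The gene was weakly expressed, with an average of 2.06 per the authors' deposited table. Most of its sequence, 91.6% of the 31-base stretches, is shared with other genes. Whether reads were divided among copies was not tested.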

How the results depend on the processing

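The 222 calls, 149 positive and 73 negative, became 90 (69 and 21) when p-values were adjusted among the genes at 3 or more alone, and 528 (330 and 198) at adjusted p under 0.1. Under the other 4 settings the counts were 209, 179, 160 and 187, of which 66.5% to 68.8% were positive. Adjustment over the 13504 genes of the table ended 13 calls, those of Cdc6, Ddost, Eef2k, Fam13b, Ier3, Nrip1, Pex13, Pif1, Sgsh, Slc25a17, Zfp345, Zfp953 and Zfyve26. The count of 1 gene that differed between the lines became 0 with 20 degrees of freedom and 0 among genes at 3 or more; at an unadjusted p under 0.05 it was 835. The share of positive members lay within its 95% binomial interval (exact) for 95 of 101 classes after correction for length and expression, and for at least 100 of 101 under each of the other 3 settings. Of the classes plotted, the large-subunit ribosomal proteins were the exception, at 18.4% positive in place of 32.7% after centring on the median of all genes. Over all genes the rank correlation with 3' UTR length was 0.123 and with coding length 0.146. No paired analysis was possible because the table holds no values per library, and leaving out each replicate was not run for the same reason.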
